A study of Mus musculus with 23 samples.

Results

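Alpha cells sorted from the islets of mice homozygous for a knockout of the glucagon receptor gene (Gcgr) were compared with alpha cells sorted from heterozygous mice. The knockout group held 5 libraries and the heterozygous group 3, 8 of the 23 libraries of the series, chosen by the sample titles. The series title links loss of the receptor to tumors that begin in alpha cells and depend on amino acids, and the 8 libraries ask what the loss does to alpha cells taken from islets. Both groups received tamoxifen at 200 mg/kg by intraperitoneal injection for 5 days, and 14 to 21 days passed before islets were taken and dispersed. The heterozygous cells carry 1 disrupted copy of the receptor gene by their label, so the comparison is not with wild-type cells. What tamoxifen acts on, the marker used for sorting, the strain and the age are not named in the labels. The labels give samples as processed individually without tying them to animals, and p-values therefore measure only the spread between these samples.

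Alpha cells secrete glucagon, which acts on its receptor in the liver to drive glucose output and the breakdown of amino acids. When hepatic glucagon signalling is lost in mice, circulating amino acids and glucagon rise and alpha cells expand, a loop in which the glutamine transporter SLC38A5 and the growth-regulating kinase complex mTORC1 are known to take part. Alpha cells can also give rise to glucagon-producing neuroendocrine tumors when the receptor is absent.

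Values were deposited as RPKM, read counts scaled to gene length and library size, for 28096 genes. Of these, 10718 reached 1 RPKM in at least 3 of the 8 libraries and were tested on the log2(RPKM + 1) scale, on which the change of low genes is understated. All differences below are knockout minus heterozygous on that scale unless called a ratio. Knockout libraries held values above 0 for 13334 to 16536 genes and heterozygous libraries for 13124 to 16579. The libraries fell into 2 sets that the labels do not name: knockout 1 and 2 and heterozygous 1 and 2 had 13124 to 13882 genes above 0, and knockout 3, 4 and 5 and heterozygous 3 had 16123 to 16579. Heterozygous 3 correlated more closely with knockout 3, 4 and 5 (Pearson r of 0.857, 0.867 and 0.825 across tested genes) than with heterozygous 1 and 2 (0.683 and 0.730). It was also the only library with Xist above 0.161 RPKM, at 103.7 RPKM, as in female cells. If the values are plain RPKM, the smallest steps in the table correspond to 26.0 to 37.6 M reads in knockout and 29.2 to 40.3 M reads in heterozygous libraries. A value at or near 0 in this table does not show that a gene is silent, since Gapdh, which every cell uses, stood at only 0.179 to 1.74 RPKM in knockout and 0.365 to 4.30 RPKM in heterozygous libraries.

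The deleted gene itself did not check the labels. Gcgr (chromosome 11, 120530699 to 120538986, GRCm38) was listed at 0 in all 3 heterozygous libraries and in 4 of the 5 knockout libraries, and at 0.111 RPKM in knockout 4. An antisense gene, Gm11789, overlaps it, and nothing says whether counting used the strand. The cells did carry the markers of their label. Glucagon (Gcg) made up 61.3 to 69.5% of all RPKM in knockout and 61.3 to 67.2% in heterozygous libraries, and transthyretin (Ttr), a hormone carrier made in quantity by alpha cells, averaged 14203 ± 1805 RPKM in knockout (SD, n = 5) and 9449.7 ± 3963 RPKM in heterozygous cells (SD, n = 3). Of the beta cell markers, the factors Pdx1 and Mafa did not exceed 0.573 RPKM in any library, while Nkx6-1 reached 1.88 RPKM in knockout 1. Insulin transcripts were present, with Ins1 at 83.2 to 287 RPKM in knockout and 181 to 902 RPKM in heterozygous libraries. Iapp was at 76.9 to 183 RPKM in knockout and 83.5 to 304 RPKM in heterozygous libraries. G6pc2 reached 10.4 RPKM in knockout 4, and Slc2a2 and Ucn3 reached 5.74 and 4.52 RPKM in heterozygous 2.

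Few genes were called different, and those that were included a nutrient transporter and secreted proteins on the higher side and the metallothionein Mt1 and 3 immediate early genes on the lower side. At an adjusted p under 0.05 (limma, Benjamini-Hochberg over all genes tested), 17 genes (0.159%) were higher and 11 (0.103%) lower in knockout cells. Without adjustment, 1132 genes (10.6%) had p under 0.05, 606 (5.65%) higher and 526 (4.91%) lower. In 413 genes (3.85%) every knockout library lay above every heterozygous library, and in 386 (3.6%) every knockout library lay below; such genes are called separated here. The median difference over all tested genes was 0.01. All 28 called genes were separated. Of the tested genes, 319 were under 1 RPKM in every heterozygous library and 34 in every knockout library, so they passed the filter only through the other group; Cav1, Ckmt1 and Septin3 are the called genes among them. The counts depended on settings and on single libraries. With no filter on low values 0 genes were called in either direction (limma, 1443 with unadjusted p under 0.05). At a pseudocount of 0.1 RPKM 14 were higher and 1 lower. Without heterozygous 2, 9 genes were higher and 1 was lower, and that 1 was not among the 11. Without heterozygous 1 they were 23 and 17, and without heterozygous 3, 28 and 21. The lower count was 7 without knockout 2, 5 without knockout 3, 7 without knockout 4 and 4 without knockout 5.

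**Figure D1:**
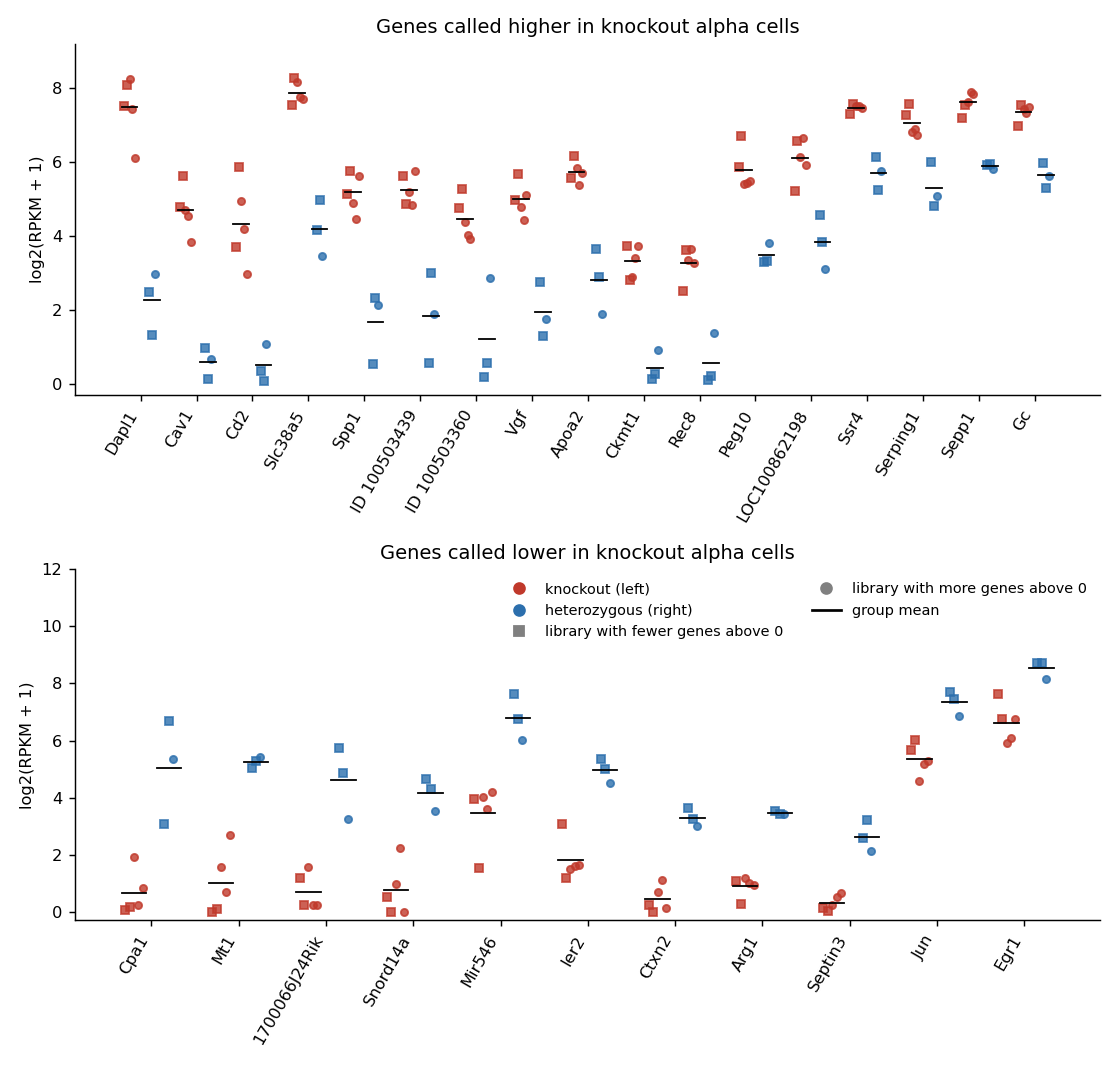
Values of the 17 genes called higher (upper panel) and the 11 called lower (lower panel) in each library, as log2(RPKM + 1); red points are the 5 knockout libraries, blue points the 3 heterozygous libraries, squares the libraries with fewer genes above 0, and black lines group means. In every gene shown the red and blue points do not overlap, with the widest gap between means in Dapl1 (5.23) among the higher genes and Cpa1 (-4.40) among the lower ones.

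Slc38a5, which carries glutamine and related amino acids into the cell with sodium (chromosome X, 8271133 to 8280179), was among the genes with the firmest call. It stood at 185, 307, 284, 215 and 207 RPKM in knockout libraries 1 to 5 and at 16.8, 30.4 and 10.01 RPKM in heterozygous libraries 1 to 3. The lowest knockout library was thus well above the highest heterozygous one, and the ratio of means was 12.6. The difference was 3.69 (SE 0.34, adjusted p = 0.000285), and the call held with any 1 library left out. Of the other 19 tested amino acid transporters none was called, and the list median of 20 was -0.23. Tmem27 (collectrin), a partner protein that brings amino acid transporters to the cell surface, was separated upward, at 492 to 810.0 RPKM in knockout and 279 to 335 RPKM in heterozygous cells (difference 1.06, adjusted p = 0.0862). The cationic amino acid carrier Slc7a2 and the leucine exchanger Slc7a5 were separated downward, with differences of -1.12 and -1.21 and adjusted p of 0.187 and 0.376. Slc3a2, the chain that pairs with Slc7a5, overlapped between the groups, at 6.03 to 16.0 RPKM in knockout and 15.2 to 41.8 RPKM in heterozygous cells.

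Genes that act on the response to amino acids inside the cell gave no calls. None of 30 tested genes of mTORC1 amino acid sensing was called or separated, and their median was 0.11. Among 14 genes of the ATF4 response, which is switched on by amino acid shortage, none was called and the median was -0.12; Ppp1r15a, the phosphatase subunit that restarts translation, was separated downward at 3.79 to 9.98 RPKM in knockout and 18.7 to 22.4 RPKM in heterozygous cells (difference -1.39, adjusted p = 0.216). Of 23 aminoacyl-tRNA synthetases none was called, and 1 was separated upward and 3 downward, against 3.85% and 3.6% of all genes. Their median was -0.46, although it was 0.13 within knockout 3, 4 and 5 against heterozygous 3. Among 23 genes of amino acid breakdown and the urea cycle, 1 was called, Arg1, which encodes the arginase that splits arginine into ornithine and urea. Arg1 stood at 1.10, 0.208, 1.26, 1.02 and 0.920 RPKM in knockout libraries and at 10.6, 9.74 and 9.75 RPKM in heterozygous libraries. The 3 heterozygous values were close to each other and each was several times the highest knockout value (difference -2.57, SE 0.45, adjusted p = 0.0279). The call was lost without heterozygous 2 (adjusted p = 0.0945), heterozygous 3 (0.0611) or any of knockout 3, 4 and 5 (0.0893, 0.111 and 0.0757). The rest of the list had a median near that of all genes, with -0.07 over the 23.

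Dapl1, named for its likeness to death-associated protein, had the widest difference of all called genes. It stood at 183, 270.2, 304, 173 and 68.7 RPKM in knockout libraries and at 4.64, 1.48 and 6.84 RPKM in heterozygous libraries. Even knockout 5, the lowest of its group, was far above every heterozygous library (difference 5.23, SE 0.48, adjusted p = 0.000285, chromosome 2, 59484653 to 59505020). Cd2, an adhesion receptor known from T and NK lymphocytes (chromosome 3, 101275899 to 101287939), stood at 11.9, 57.0, 29.7, 17.3 and 6.90 RPKM in knockout libraries and at 0.272, 0.0590 and 1.12 RPKM in heterozygous libraries. Knockout values varied widely, with knockout 2 the highest, but none approached the heterozygous range (difference 3.83, SE 0.59, adjusted p = 0.0138, and 0.0712 without heterozygous 2). Of the 14 lymphocyte markers listed, 2 were tested and Cd2 was the only call. Cd3e and Cd3d, subunits of the T cell receptor complex, did not exceed 1.45 RPKM in knockout and 1.14 RPKM in heterozygous libraries. The T cell kinase Lck was at 0.0170 to 0.465 RPKM in knockout and 0 to 0.678 RPKM in heterozygous libraries.

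Caveolin 1 (Cav1), the membrane protein that shapes caveolae (chromosome 6, 17306335 to 17341452), stood at 26.6, 48.5, 25.2, 22.3 and 13.3 RPKM in knockout libraries and at 0.961, 0.0870 and 0.607 RPKM in heterozygous libraries. All 5 knockout libraries were above 10 RPKM and all 3 heterozygous libraries below 1 (difference 4.11, SE 0.45, adjusted p = 0.00138), and the call held with any 1 library left out. An antisense gene, Gm15581, overlaps Cav1 and its neighbour Cav2. Cav2, which forms complexes with Cav1, did not separate the groups, at 1.61 to 5.98 RPKM in knockout libraries and 0.0420, 20.8 and 0.0610 RPKM in heterozygous libraries 1 to 3. Its mean difference of 0.45 changed sign when heterozygous 1 or 3 was left out and within the set of fewer genes above 0. The cavins Sdpr and Prkcdbp, coat proteins of caveolae, were at 0 in all 5 knockout libraries and at most 0.0490 RPKM in heterozygous ones, and the cavin Ptrf was at 1.41 RPKM in knockout 2 and at most 0.306 RPKM in the other 7 libraries.

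Several secreted proteins were higher in knockout cells. Osteopontin (Spp1), a secreted phosphoprotein also made by pancreatic ducts, stood at 34.5, 53.6, 28.6, 21.0 and 48.8 RPKM in knockout libraries and at 0.458, 4.03 and 3.38 RPKM in heterozygous libraries. Vgf, a precursor of neuroendocrine peptides stored in secretory granules, stood at 30.6, 50.6, 26.8, 20.8 and 33.5 RPKM in knockout libraries and at 5.76, 1.46 and 2.35 RPKM in heterozygous libraries. In both genes the lowest knockout library exceeded the highest heterozygous one several times over, with differences of 3.51 (SE 0.47) and 3.07 (SE 0.42), each with adjusted p = 0.00875 and a call that held with any 1 library left out. Spp1 is also on the list of ductal markers, of which the defining Krt19, Sox9 and Cftr were at 0 in all 8 libraries.

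Plasma proteins best known from the liver were the list with the most calls. Of 38 in the table, 8 passed the filter; 4 of these were called higher, against 0.159% of all genes, and none lower, and the median was 1.45 over those 8. The list was drawn up with earlier results of these data known. Apolipoprotein A-II (Apoa2), a protein of high-density lipoprotein, stood at 46.7, 71.3, 56.8, 41.1 and 51.3 RPKM in knockout libraries and at 11.7, 6.45 and 2.70 RPKM in heterozygous libraries (difference 2.92, SE 0.40, adjusted p = 0.00875). Selenoprotein P (Sepp1), which carries selenium in plasma, stood at 146, 187, 198, 237 and 231 RPKM in knockout libraries and at 59.5, 61.0 and 55.1 RPKM in heterozygous libraries (difference 1.74, SE 0.25, adjusted p = 0.00954). The 3 heterozygous values lay close together, and the lowest knockout value was more than 2 times the highest of them; Ccdc152 overlaps the gene on the other strand. The vitamin D-binding protein Gc averaged 165 ± 24.5 RPKM in knockout cells (SD, n = 5) and 49.8 ± 12.1 RPKM in heterozygous cells (SD, n = 3), a difference of 1.72 (adjusted p = 0.0133, and 0.0712 without heterozygous 2). The complement inhibitor Serping1 averaged 136 ± 35.8 RPKM in knockout and 41.1 ± 19.5 RPKM in heterozygous cells, a difference of 1.76 (adjusted p = 0.0440). That call was the weakest of the 4: with 1 library left out it held only without heterozygous 1, and its adjusted p ran to 0.221 without heterozygous 2. The remaining 4 plasma proteins were not called. Of the 13 tested genes of selenium handling, Sepp1 was the only called member. Among 35 genes of granins and regulated exocytosis, only Vgf was called, and the median was -0.06. In that list 4 were separated upward and 4 downward, against 3.85% and 3.6% of all genes. Scg3, a granin that sorts hormones into granules, was separated upward at 333 to 401 RPKM in knockout and 154 to 244 RPKM in heterozygous cells (difference 1.04, adjusted p = 0.0996). Pcsk1n, an inhibitor of a prohormone convertase, was separated downward at 50.3 to 80.8 RPKM in knockout and 103 to 160.5 RPKM in heterozygous cells (difference -0.89, adjusted p = 0.283).

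Genes of the secretory and degradative organelles had positive medians but 1 call. Ssr4, a subunit of the complex that helps the translocon thread proteins into the endoplasmic reticulum, stood at 157, 189, 184, 184 and 175 RPKM in knockout libraries and at 69.4, 36.7 and 53.2 RPKM in heterozygous libraries. The knockout libraries lay in a narrow band above all heterozygous ones (difference 1.77, SE 0.26, adjusted p = 0.0120, and 0.0712 without heterozygous 2). Of the 34 genes of the translocon and glycosylation, 5 were separated upward and none downward, and the median was 0.47; Ostc, a subunit of the oligosaccharyltransferase, had a difference of 1.33 (adjusted p = 0.179). The 29 chaperones and unfolded protein response genes gave no call and a median of 0.16. Of 34 genes of the vacuolar proton pump and lysosome, none was called, 7 were separated upward and 1 downward, and the median was 0.49. Atp6ap1, an accessory subunit of that pump, came closest, at 88.0 to 129 RPKM in knockout and 38.9 to 43.7 RPKM in heterozygous cells (difference 1.30, adjusted p = 0.0525). The lysosomal membrane protein Lamp2 and the hydrolase Hexa had differences of 1.31 and 1.21 (adjusted p = 0.179 and 0.214). Of 73 nuclear-encoded respiratory chain genes, none was called, 5 were separated upward and none downward, and the median was 0.32; Ndufa1, a complex I subunit, had a difference of 1.46 (adjusted p = 0.105). These 3 shares of separated genes, against 3.85% of all genes upward, were not tested.

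Higher calls were also spread over imprinting, cohesin and creatine genes. Peg10, a paternally expressed imprinted gene derived from a retrotransposon, stood at 57.9, 103, 41.4, 42.3 and 44.0 RPKM in knockout libraries and at 8.86, 9.02 and 13.1 RPKM in heterozygous libraries (difference 2.30, SE 0.36, adjusted p = 0.0141). Knockout 2 was high and the other 4 knockout libraries lay together, all above the heterozygous ones, and the call was lost without heterozygous 2 (0.0712). Among the 29 tested imprinted genes it was the only call; Mest was separated upward (difference 2.19, adjusted p = 0.235) and Zim1 downward (difference -1.74, adjusted p = 0.114). Rec8, the cohesin subunit of meiosis, stood at 4.67, 11.2, 9.17, 11.5 and 8.73 RPKM in knockout libraries and at 0.0680, 0.166 and 1.60 RPKM in heterozygous libraries (difference 2.71, SE 0.49, adjusted p = 0.0351). Heterozygous 3 was the highest of its group and still below each knockout library. That call held in 2 of the 8 fits with 1 library left out, without knockout 1 and without heterozygous 3. The other 9 cohesin genes tested were not called, and Rad21, the subunit that Rec8 replaces in meiosis, was at 21.6 to 24.4 RPKM in knockout and 27.8 to 42.0 RPKM in heterozygous cells. Ckmt1, the mitochondrial creatine kinase, stood at 12.4, 6.01, 6.45, 9.62 and 12.3 RPKM in knockout libraries and at 0.0870, 0.192 and 0.870 RPKM in heterozygous libraries (difference 2.89, SE 0.46, adjusted p = 0.0157). All heterozygous libraries were below 1 RPKM; the call was lost without knockout 4, knockout 5 or heterozygous 2 (0.0744, 0.0733 and 0.0712), and Ckmt1 overlaps the gene Strc on the other strand. Gatm, the first enzyme of creatine synthesis, was separated upward at 13.2 to 27.6 RPKM in knockout and 1.03 to 11.9 RPKM in heterozygous cells (difference 2.16, adjusted p = 0.175). The last 3 higher entries were LOC100862198 (difference 2.26) and 2 entries with an identifier but no symbol, for which no role is given here.

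On the lower side, immediate early genes made up 3 of the 11 calls. These genes are transcribed within minutes of a stimulus, among them growth factors, membrane depolarization and the handling of tissue, without new protein synthesis. Of 29 tested, 3 were called lower and none higher, against 0.103% and 0.159% of all genes. The list was drawn up with earlier results of these data known. In 13 every knockout library lay below every heterozygous library, in 1 above, against 3.6% and 3.85% of all genes. Both counts include a gene that passed the filter only through the group where it was high. The median was -1.15, with -0.93 within the set of fewer genes above 0 and -1.08 within the other set. Ier2, a nuclear early response protein, stood at 7.46, 1.29, 1.84, 2.05 and 2.13 RPKM in knockout libraries and at 40.1, 31.3 and 21.9 RPKM in heterozygous libraries. Jun, a subunit of the transcription factor AP-1, stood at 49.8, 63.5, 22.8, 35.6 and 37.5 RPKM in knockout libraries and at 207, 175 and 114 RPKM in heterozygous libraries. Egr1, a zinc finger transcription factor, stood at 196, 106, 59.2, 67.6 and 107 RPKM in knockout libraries and at 421, 422 and 284 RPKM in heterozygous libraries. In each of the 3 the groups were apart, with heterozygous 3 the lowest of its group and knockout 1 the highest of the knockout group for Ier2 and Egr1. The differences were -3.16 (SE 0.48, adjusted p = 0.0133) for Ier2, -1.995 (SE 0.35, adjusted p = 0.0279) for Jun and -1.91 (SE 0.35, adjusted p = 0.0445) for Egr1. Leaving out heterozygous 2 ended all 3 calls, with adjusted p of 0.0712, 0.150 and 0.221. Jun was also lost without heterozygous 1 or knockout 3, 4 or 5, and Egr1 kept its call only without knockout 1. An antisense gene, Junos, overlaps Jun.

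The next members by p were not called. Fos, the partner of Jun in AP-1, was at 30.6 to 112 RPKM in knockout and 179 to 192 RPKM in heterozygous cells (difference -1.78, adjusted p = 0.0632). The antiproliferative gene Btg2, the kinase phosphatase Dusp1 and the AP-1 subunit Fosb had differences of -1.37, -1.73 and -1.84 with adjusted p of 0.0800, 0.114 and 0.193. Each of these 4 genes was separated downward. Heat shock genes, another group that responds to acute stress, gave no call among 13 tested and a median of -0.41. Of these, 3 were separated downward and 1 upward, against 3.6% and 3.85% of all genes. Hspa1a, the inducible HSP70, stood at 31.4, 15.2, 2.68, 5.99 and 14.3 RPKM in knockout libraries and at 77.4, 101 and 32.0 RPKM in heterozygous libraries (difference -2.47, adjusted p = 0.158).

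**Figure D2:**
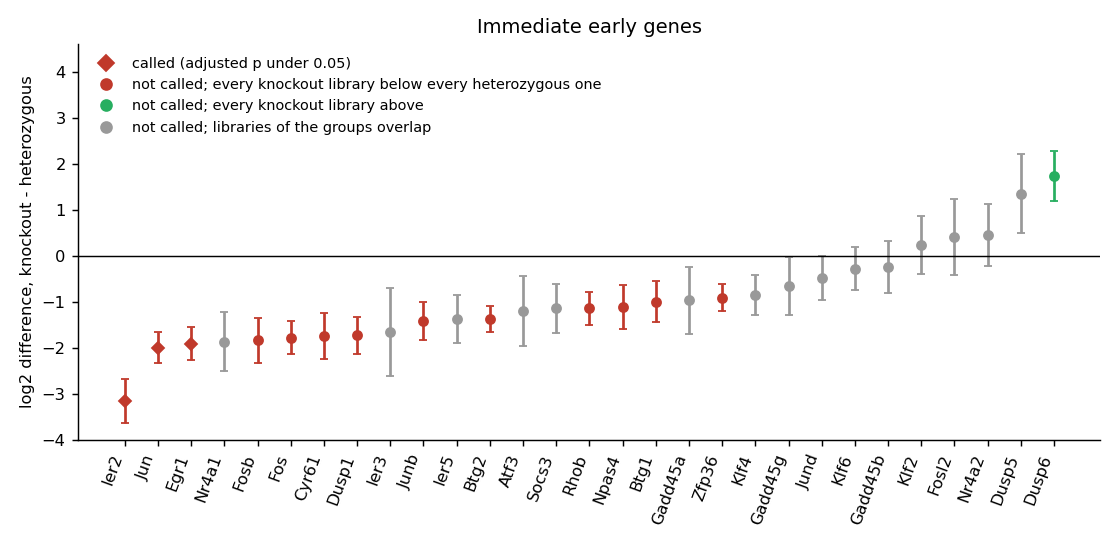
Differences, knockout minus heterozygous, in log2(RPKM + 1) for the 29 immediate early genes tested, with bars of 1 standard error from limma; diamonds are called genes, red points genes whose knockout libraries all lie below the heterozygous ones, green the reverse, grey those that overlap. The 3 diamonds, Ier2, Jun and Egr1, lie at -3.16, -1.995 and -1.91, and 24 of the 29 genes lie below 0.

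The promoters of 26 of these 29 genes were in the RefSeq table of GRCm38.p6 promoters, and the 250 bases before each start were searched on both strands for the palindromic cyclic AMP response element TGACGTCA and for the AP-1 site TGANTCA. The first was found in 2 of 26, Btg2 and Dusp1, against 1.5% of all 32851 promoters and 3.4% of the 6992 promoters of tested genes. The second was found in 0 of 26, against 6.7% of all promoters and 4.8% of those of tested genes, shares too low for 26 promoters to show a lack. Both promoters with the first motif are shown with it in capitals, since these are the letters that 2 of the separated genes share.
Dusp1, chr17:26508473-26508722, minus strand: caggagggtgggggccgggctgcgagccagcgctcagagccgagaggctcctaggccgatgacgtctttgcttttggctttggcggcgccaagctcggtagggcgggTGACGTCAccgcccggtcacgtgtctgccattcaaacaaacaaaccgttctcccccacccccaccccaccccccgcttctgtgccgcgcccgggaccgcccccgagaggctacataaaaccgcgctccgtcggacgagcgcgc
Btg2, chr1:134079156-134079405, minus strand: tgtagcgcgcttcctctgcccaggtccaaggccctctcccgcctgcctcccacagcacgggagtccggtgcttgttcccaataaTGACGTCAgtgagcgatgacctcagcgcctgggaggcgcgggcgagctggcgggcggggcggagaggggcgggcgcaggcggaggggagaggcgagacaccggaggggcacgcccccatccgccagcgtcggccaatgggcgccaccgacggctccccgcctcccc
The element begins 143 bases before the RefSeq start of Dusp1 and 166 bases before that of Btg2. A match is a description of these letters and no evidence of a factor bound there.

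Mt1, a metallothionein, one of the small cysteine-rich proteins that bind zinc and copper, was lower. It stood at 0, 0.0710, 1.98, 0.595 and 5.44 RPKM in knockout libraries and at 31.7, 37.6 and 41.9 RPKM in heterozygous libraries. Knockout 1 and 2 were near 0 and knockout 5 was the highest of its group, while the heterozygous libraries lay together (difference -4.24, SE 0.59, adjusted p = 0.00954, and 0.0515 without heterozygous 2). Its neighbour on chromosome 8, Mt2, had the same order among knockout libraries, at 0.133, 0.276, 8.19, 2.99 and 15.0 RPKM in knockout libraries and 56.0, 32.0 and 26.6 RPKM in heterozygous libraries. Mt2 was separated but not called (difference -3.28, SE 0.77, adjusted p = 0.125), and an antisense gene, Gm45774, overlaps it. Slc30a1, the zinc exporter of the cell surface, was the third gene of the list separated downward, against 3.6% of all genes. It was at 0.00700 to 1.45 RPKM in knockout and 2.32 to 10.5 RPKM in heterozygous cells (difference -1.82, adjusted p = 0.253). All 3 are textbook targets of MTF1, the zinc-sensing transcription factor, which binds metal response elements. The other 16 tested genes of metallothioneins and zinc transport, the granule zinc transporter Slc30a8 among them, were not called, and the list median was -0.11.

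The promoters of these 3 genes are shown with each match to TGCNCNC in capitals, on either strand. This pattern is looser than the core of the metal response element, so not every match is such a core.
Mt1, chr8:94178839-94179088, plus strand: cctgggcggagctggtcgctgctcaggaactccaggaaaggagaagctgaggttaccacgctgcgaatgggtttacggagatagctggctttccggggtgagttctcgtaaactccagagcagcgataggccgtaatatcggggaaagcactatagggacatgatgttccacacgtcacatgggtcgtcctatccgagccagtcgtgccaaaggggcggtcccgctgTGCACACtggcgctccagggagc
Mt2, chr8:94172368-94172617, plus strand: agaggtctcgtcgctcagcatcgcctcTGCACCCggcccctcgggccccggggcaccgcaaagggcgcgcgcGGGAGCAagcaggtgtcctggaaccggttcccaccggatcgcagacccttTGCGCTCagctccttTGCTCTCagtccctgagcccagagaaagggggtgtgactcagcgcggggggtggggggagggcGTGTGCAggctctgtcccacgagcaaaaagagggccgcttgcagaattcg
Slc30a1, chr1:191906531-191906780, plus strand: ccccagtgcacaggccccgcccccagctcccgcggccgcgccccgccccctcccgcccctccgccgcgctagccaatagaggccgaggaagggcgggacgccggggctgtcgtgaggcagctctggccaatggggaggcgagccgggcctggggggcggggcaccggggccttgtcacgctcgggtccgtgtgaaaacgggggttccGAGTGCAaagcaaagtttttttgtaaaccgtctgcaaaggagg
Within these windows Mt1 had 1 match, beginning 23 bases before its RefSeq start, Mt2 had 5, and Slc30a1 had 1, at 43 bases. GENCODE places the starts elsewhere, at 94179082 for Mt1, 94172664 for Mt2 and 191906767 for Slc30a1. Sequence outside the windows was not searched, so the counts are not those of whole promoters. The pattern is short, loose and common. At least 1 match was held by 44.4% of all 32851 promoters and 58.1% of those of tested genes. There were 3 or more in 4.7% of all promoters and 8.5% of those of tested genes.

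The other lower genes had less in common. Ctxn2, a cortexin, a small membrane protein known from neurons, stood at 0.179, 0, 0.632, 1.17 and 0.0840 RPKM in knockout libraries and at 11.4, 8.47 and 7.03 RPKM in heterozygous libraries (difference -2.86, SE 0.46, adjusted p = 0.0191, lost without knockout 3 or 5 or heterozygous 2). Septin3, a filament-forming GTP-binding protein of neurons whose symbol stood as a date in the table and was restored from its identifier, was at 0.0240 to 0.586 RPKM in knockout and 3.33 to 8.32 RPKM in heterozygous cells (difference -2.32, adjusted p = 0.0485). Septin3 passed the filter only through the heterozygous libraries. It was called in none of the 5 fits with 1 knockout library left out, and it did not enter the fits without a heterozygous library, which leave it under the filter. Of 3 non-coding entries, Mir546 lies within Ctdsp2 and Snord14a within Rps13, and 1700066J24Rik is a transcript opposite Fam219a. Mir546 stood at 14.3, 1.90, 15.2, 11.1 and 17.2 RPKM in knockout libraries and at 195, 106 and 64.4 RPKM in heterozygous libraries (difference -3.34, adjusted p = 0.0239). The host genes, named after their values were seen, had the following levels: Ctdsp2 was at 3.61 to 9.66 RPKM in knockout and 9.56 to 47.3 RPKM in heterozygous cells, and Rps13 at 1.65 to 2.72 RPKM in knockout and 4.58 to 7.00 RPKM in heterozygous cells. Reads of a small RNA inside a longer gene cannot be told from those of the host in libraries of this kind.

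Just past the threshold stood genes that were separated but not called. On the higher side these included Ttyh1, a membrane protein of the tweety family, with a difference of 2.76 (adjusted p = 0.0559), Ephx1, a detoxifying epoxide hydrolase, with 2.67 (adjusted p = 0.0620), and Tubb6, a beta tubulin, with 2.42 (adjusted p = 0.0654). Ephx1, at 0.02 to 0.106 RPKM in heterozygous libraries, passed the filter only through the knockout ones. Tnfrsf12a, the receptor of the cytokine TWEAK, the growth factor Pdgfa and the peroxiredoxin Prdx4 of the endoplasmic reticulum had differences of 2.71, 2.39 and 2.43 with adjusted p of 0.122, 0.106 and 0.114. On the lower side Slc9a3r2, a scaffold protein of membrane transporters, stood at 0 to 0.0710 RPKM in knockout and 2.10 to 3.63 RPKM in heterozygous cells (difference -1.88, adjusted p = 0.0511), and passed the filter only through the heterozygous libraries. Id3, an inhibitor of helix-loop-helix transcription factors, had a difference of -2.88 (adjusted p = 0.0525), and the sterol carrier Stard4 one of -2.87 (adjusted p = 0.0884). Stard4, at 0 to 0.594 RPKM in knockout libraries, also passed the filter only through the heterozygous ones. The 26 tested genes of sterol and fatty acid synthesis had a median of 0.02. Among them 1 was separated upward, the synthesis enzyme Sqle, and 2 downward, Stard4 included, against 3.85% and 3.6% of all genes.

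Hormones and regulators of alpha cell identity were not called. Gcg averaged 354476 ± 63291 RPKM in knockout cells (SD, n = 5) and 291660.1 ± 89646 RPKM in heterozygous cells (SD, n = 3), a difference of 0.31 (adjusted p = 0.663). Of 16 alpha and pan-islet transcription factors none was called, 12 had negative differences and the median was -0.32. Foxa2 and Nkx2-2, factors shared by islet cell types, were separated downward, with differences of -1.24 and -0.97 (adjusted p = 0.311 and 0.323). Peptide YY (Pyy) was separated upward at 2778 to 6203 RPKM in knockout and 1459.8 to 2676 RPKM in heterozygous cells (difference 0.96, adjusted p = 0.283). The growth genes showed no call either. Mki67, a marker of cycling cells, was at 0.564 to 3.58 RPKM in knockout and 0.0120 to 1.47 RPKM in heterozygous cells, and of 9 tested proliferation genes none was separated. Of 9 G1 cyclins, kinases and inhibitors 3 were separated upward, against 3.85% of all genes: Ccnd2, Cdk4 and the CDK inhibitor Cdkn2c, with differences of 0.75, 0.85 and 1.84 (adjusted p = 0.321, 0.456 and 0.220). Cdkn2c, at 0 to 0.295 RPKM in heterozygous libraries, passed the filter only through the knockout ones. Of 8 genes of the IGF and insulin axis 4 were separated downward, against 3.6% of all genes, among them the insulin receptor Insr and the binding protein Igfbp7, with differences of -1.29 and -1.76 (adjusted p = 0.334 and 0.217), and the list median was -0.67. Igf2bp3, another of the 4, was at 0.008 to 0.371 RPKM in knockout libraries and passed the filter only through the heterozygous ones.

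**Figure D3:**
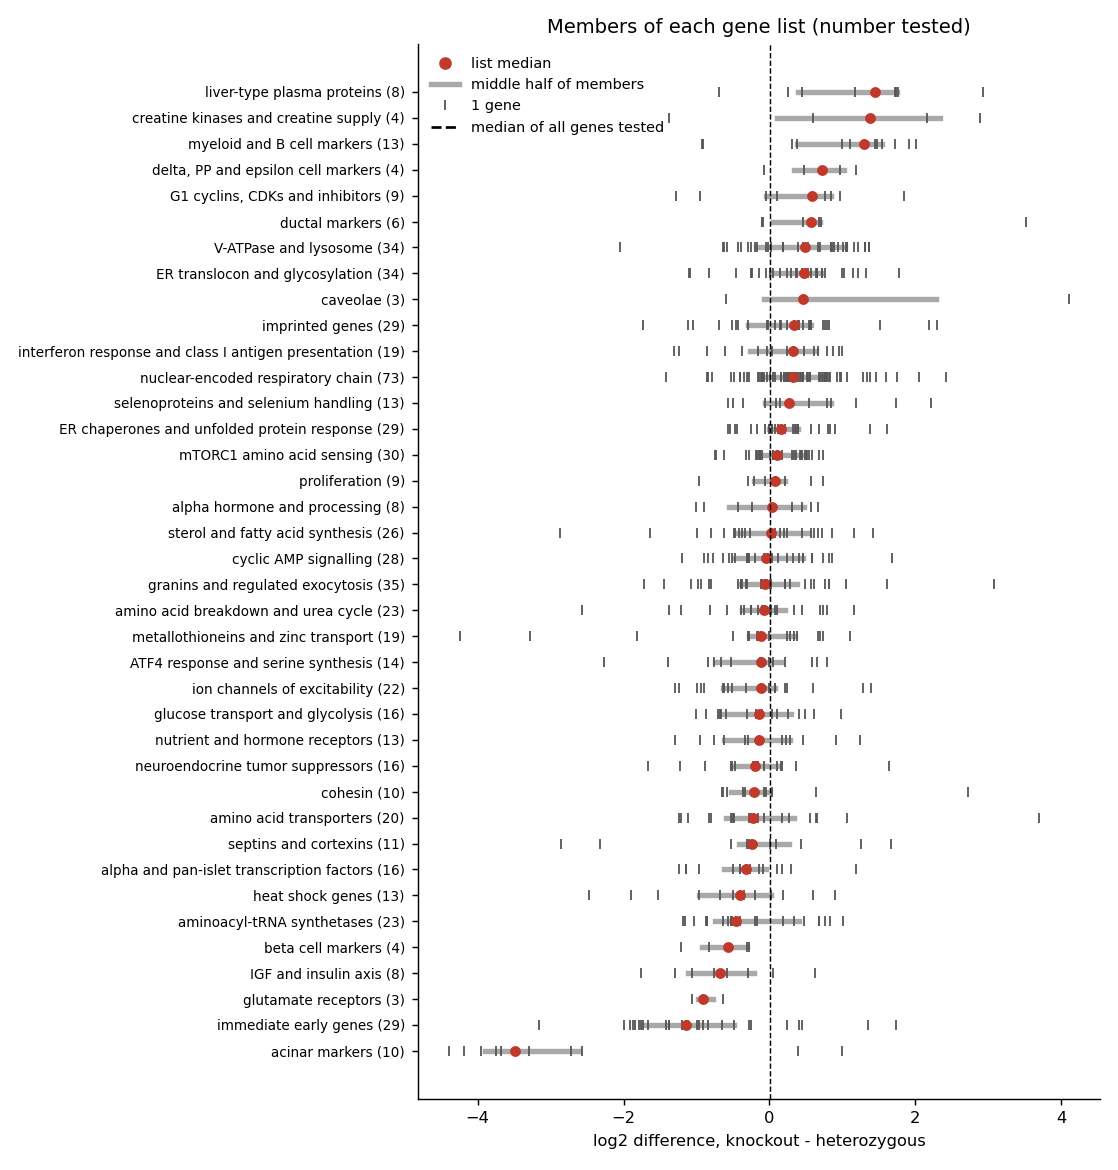
Differences, knockout minus heterozygous, in log2(RPKM + 1) for the tested members of each gene list with at least 3 tested; ticks are genes, grey bars the interquartile range of members, red points list medians, and the dashed line the median of all tested genes (0.01). Acinar markers (median -3.49) and immediate early genes (-1.15) lie farthest to the left and liver-type plasma proteins (1.45) farthest to the right.

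Markers of other pancreatic cells were measured for what else the sorts held; in bulk libraries, fewer cells of a type and less RNA per cell cannot be told apart. The acinar markers had the lowest list median, -3.49 over 10 tested. Cpa1, a digestive carboxypeptidase of acinar cells, was called lower, at 0.0470, 0.122, 2.76, 0.187 and 0.787 RPKM in knockout libraries and 7.46, 102 and 40.05 RPKM in heterozygous libraries (difference -4.40, SE 0.72, adjusted p = 0.0195). The elastase Cela2a stood at 0.0810 to 2.39 RPKM in knockout libraries and at 0.455, 171 and 76.1 RPKM in heterozygous libraries. Heterozygous 2 and 3 were thus high in both enzymes, and heterozygous 1 was within the knockout range for Cela2a. The summed RPKM of the 28 acinar markers was 7.80 to 72.1 in knockout libraries and 12.2, 3745 and 574 in heterozygous libraries 1, 2 and 3. Of 10 tested acinar markers 1 was called, and the Cpa1 call was lost without knockout 1, 2 or 5 or heterozygous 2 or 3, at adjusted p of 0.0520 to 0.109. The acinar factor Ptf1a was at 0 in all 8 libraries. With the acinar level as a covariate, 6 of the 17 higher and 3 of the 11 lower genes were still called, and 14 genes were called in each direction.

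Hormones of other islet cells gave no call. The insulin genes Ins1 and Ins2 were at 83.2 to 287 and 86.5 to 289 RPKM in knockout libraries, and at 181 to 902 and 197 to 783 RPKM in heterozygous libraries, where heterozygous 1 was the highest. Somatostatin (Sst) was at 95.5 to 881 RPKM in knockout and 98.1 to 692 RPKM in heterozygous libraries, and pancreatic polypeptide (Ppy) at 1553 to 3152 and 775 to 3822 RPKM. The mean differences of Ins1, Sst and Ppy, -0.83, -0.08 and 0.47, changed sign under some alternatives. Myeloid and B cell markers had a median of 1.30 over 13 tested with no call; their summed RPKM was 22.0 to 358 in knockout and 7.97 to 26.1 in heterozygous libraries. Knockout 5 had the highest sum and knockout 2 the next, at 158.5 RPKM. The antigen-presentation gene H2-Aa accounted for 149.8 RPKM in knockout 2, and Cd74, the invariant chain of that pathway, was at 74.0 RPKM in knockout 5. None of the 13 endothelial markers passed the filter, with sums of 0.548 to 2.65 RPKM in knockout and 2.47 to 14.9 RPKM in heterozygous libraries. By mean log2(RPKM + 1) of the tested myeloid and B cell markers, knockout 2 was at 0.997 and heterozygous libraries at 0.419 to 1.09. Knockout 2 was also highest for Cd2, Cav1, Spp1 and Vgf. Knockout 5, with the highest myeloid and B cell sum, was the lowest knockout library for Cd2 (6.90 RPKM) and Cav1 (13.3 RPKM). It came next after knockout 2 for Spp1 (48.8 RPKM) and Vgf (33.5 RPKM). The part of immune RNA in any called gene was not tested.

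**Figure D4:**
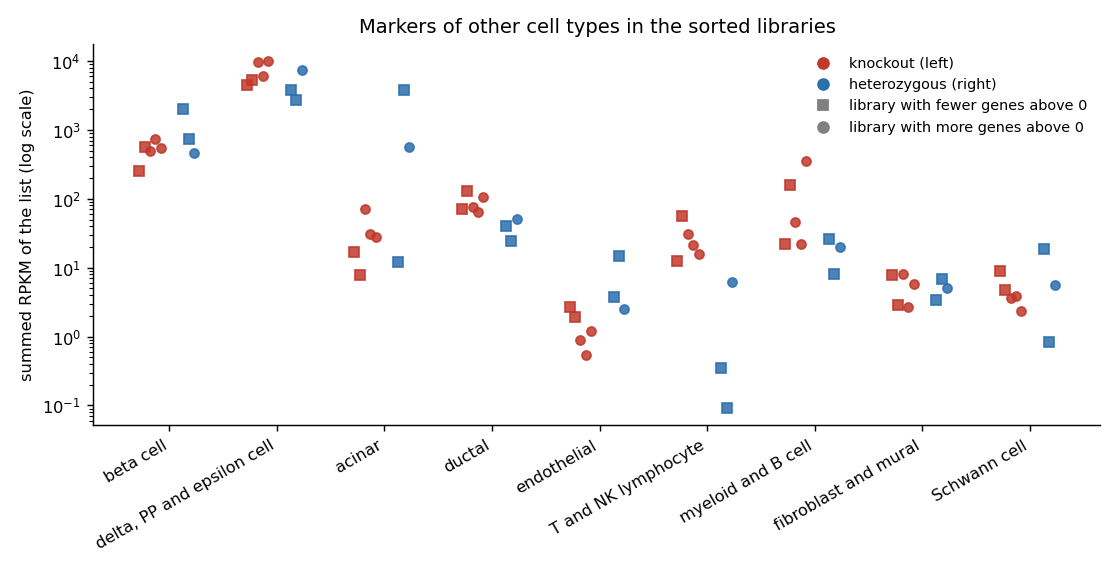
Summed RPKM (log axis) of marker lists of other cell types in each library; red points are the 5 knockout libraries, blue the 3 heterozygous libraries, squares the libraries with fewer genes above 0. Acinar sums are 7.80 to 72.1 in knockout libraries and 12.2, 3745 and 574 in heterozygous libraries, and knockout 5 is highest for myeloid and B cell markers at 358.

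The size of each difference was also taken within the 2 sets of libraries; the sign there is fixed for genes whose groups are separated over all 8. Within knockout 1 and 2 against heterozygous 1 and 2, no gene was called by limma, with 602 at an unadjusted p under 0.05. The second set, knockout 3, 4 and 5 against heterozygous 3, has 1 heterozygous library, which alone had Xist at a female level, so sex and genotype cannot be told apart in it, and its differences are given as values. Slc38a5 had differences of 3.34 in the first set and 4.41 in the second, Dapl1 5.90 and 4.30, Cav1 4.66 and 3.68, Mt1 -5.10 and -3.78, and Ier2 -3.05 and -2.93. The smallest within-set values of called genes were those of Sepp1 (1.44) on the higher side and Egr1 (-1.54) on the lower side, both in the first set, apart from entries without a symbol.

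**Figure D5:**
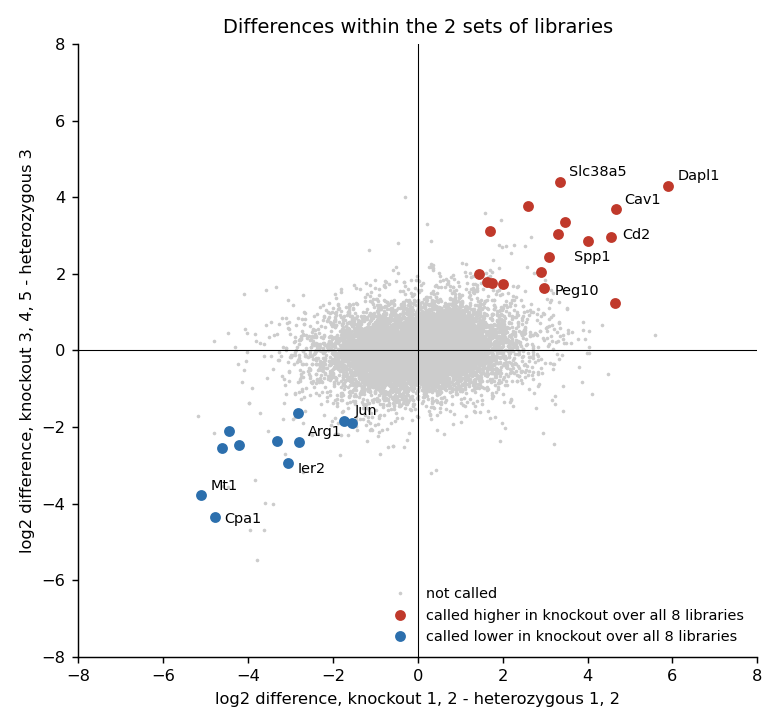
Differences in log2(RPKM + 1) for every tested gene, within the libraries with fewer genes above 0 (knockout 1 and 2 minus heterozygous 1 and 2, horizontal axis) and within those with more (knockout 3, 4 and 5 minus heterozygous 3, vertical axis). Red points are the 17 genes called higher and blue points the 11 called lower over all 8 libraries; Slc38a5 lies at 3.34 and 4.41, and Mt1 at -5.10 and -3.78.

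The tissue libraries of the series, knockout tumors (n = 7) and non-tumor pancreas of knockouts (n = 8), were normalised in a separate table, so levels are given side by side with no test. The median level of Slc38a5 in RPKM was 712 in tumors against 39.3 in non-tumor tissue, that of Dapl1 315 against 0.205, and that of Cd2 31.1 against 0.107. For Cav1 the medians were 25.3 and 3.64 RPKM, and for Ctxn2, lower in knockout alpha cells, 3.09 and 0 RPKM. Spp1, higher in knockout alpha cells, had a tumor median of 116.6 RPKM against 99.4 RPKM outside tumors, with overlapping ranges. Jun and Egr1, lower in knockout alpha cells, had medians of 16.4 and 6.83 RPKM in tumors, against 6.16 and 2.6 RPKM in non-tumor tissue. The acinar enzyme Cpa1 had a median of 34673 RPKM in non-tumor tissue, which is largely exocrine.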

How the data were processed

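RNA was sequenced in bulk from sorted alpha cells. RNeasy extraction and TruSeq library preparation are stated in the labels' protocols. Per the submitters' processing notes, CASAVA 1.8, GSNAP and GRCm38 were used, in roles that are not stated; the sources used here do not say how reads were counted and filtered. For the 8 alpha cell libraries the authors deposited 1 table of RPKM values; the unit was read from the values, and RPKM depend on every other gene, here mostly on Gcg. Columns were matched to libraries by the labels, and 25 symbols given as dates were restored from identifiers.

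Log2(RPKM + 1) was tested with limma 3.58.1 (trend, R 4.3.3), 5 knockout against 3 heterozygous libraries, two-sided, Benjamini-Hochberg over 10718 genes, threshold 0.05, with no covariate. The fit was tested on simulated data. A second table of RPKM, deposited for tissue, was used for levels only. Replicate numbers did not pair the libraries. Promoters came from RefSeq (GRCm38.p6) and positions from GENCODE; Python 3.11.15 with pandas 2.3.3, numpy 2.4.6 and matplotlib 3.10.9 did the rest.

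Members and lists were chosen with earlier results of these data known. Text names a few key genes, called genes, list members called or among the 4 of lowest p, cell type markers, and the 12 largest separated uncalled changes each way with the 5 lowest adjusted p; exceptions are marked. Alternatives were other pseudocounts, filters, scalings, weights, covariates, a replicate block, and each library left out. Some genes of the lists are not reported here.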

Additional observations from a re-analysis of the deposited data

Results flagged for a closer look

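Of 163 values tested for a library far from the other knockout libraries (log2 scale, gap over range above 0.71), 15 were found, where chance alone gives about 1 in 20. Knockout 2 was low for Mir546 (1.90 RPKM, others 11.1 to 17.2), Arg1 (0.208 RPKM, others 0.920 to 1.26) and Slc3a2 (6.03 RPKM, others 13.3 to 16.0). It was high for Gpx2, a glutathione peroxidase (30.2 RPKM, others 1.76 to 3.33), and Septin9 (10.7 RPKM, others 3.36 to 4.68). Knockout 1 was high for Ier2 (7.46 RPKM, others 1.29 to 2.13) and for the class I antigen gene H2-K1 (129.1 RPKM, others 93.2 to 99.3). Knockout 3 was high for Cela2a (2.39 RPKM, others 0.0810 to 0.349), and knockout 5 was low for Scg3 (333 RPKM, others 381 to 401).

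Among mean log2(RPKM + 1) levels of whole lists, knockout 5 was high for myeloid and B cell markers (4.02) and for the ATF4 response (2.71). Knockout 1 was high for amino acid transporters (4.15) and low for the translocon list (3.96), and knockout 2 was high for granins and exocytosis (4.65) and low for glutamate receptors (2.06). For Arg1 and Mir546 knockout 2 stood apart on the side away from the heterozygous values. For Ier2 knockout 1 stood apart towards them, at 7.46 RPKM against 21.9 to 40.1 RPKM. All called genes were separated, so none of these libraries could lie in the heterozygous range.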

How the results depend on the processing

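The 26 called genes with a symbol kept their sign in each alternative that they entered, and some did not enter all. All called genes were separated, so their sign was fixed in advance under other pseudocounts and filters and with a library left out. Counts of higher and lower calls moved from 17 and 11. Lower calls fell to 1 at a pseudocount of 0.1 and to 1 at 0.01. With no filter, limma called 0 and 0 of 19527 genes (1443 at unadjusted p under 0.05, lowest adjusted p 0.0759). Quantile normalization gave 28 and 18, array weights 51 and 39, and no mean-variance trend 10 and 7. Rescaling without Gcg gave 22 lower, with the median of all genes at -0.12. The acinar covariate kept 6 and 3 of the called genes, with 14 and 14 called. Leaving out 1 library gave 9 to 28 higher and 1 to 21 lower calls. Within the libraries with fewer genes above 0, a split chosen after seeing the data, limma called 0 and 0 (602 at unadjusted p under 0.05). The other set has 1 heterozygous library, which alone had Xist at a female level, so no count is given for it. Causes of these shifts were not tested.

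A replicate block left 2 higher calls, Slc38a5 and Dapl1, and 0 lower (720 genes at unadjusted p under 0.05 in limma). Deviations of same-numbered libraries correlated at 0.001, 0.015 and 0.087, so the numbers were not taken as pairs, and only heterozygous 3 correlated best with its own number.

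Reversed differences among uncalled genes were Gcg (-0.034 with the acinar covariate), Ins1 (0.070 with array weights, 0.44 in the set of more genes), Sst (1.15 with the acinar covariate, -0.90 to 0.51 with 1 library left out), Ppy (-0.17 and -0.69 as for Ins1), Mki67 (-0.50 in the set of fewer genes) and Cav2 (-0.58 there, and -0.28 to 1.91 with 1 library left out). Quantile normalization gave Gcg a difference of 0.00 by construction, since Gcg was the highest gene in every library. RPKM without counts give no counting error, and values near 0 carry little weight here.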

Other observations

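Several further gene groups are described over their tested members, and apart from septins and cortexins none held a call. Over all tested genes 3.85% were separated upward and 3.6% downward, and no share below was tested against these. Of 16 genes mutated in neuroendocrine tumors or known to restrain them, Phlda3, an inhibitor of AKT, was separated upward (difference 1.64, adjusted p = 0.254 in limma), and the chromatin genes Daxx and Kdm6a downward (-1.66 and -1.23, adjusted p = 0.367 and 0.283), with a list median of -0.20. Phlda3, at 0.023 to 0.685 RPKM in heterozygous libraries, passed the filter only through the knockout ones. Of 19 genes of the interferon response and class I antigen presentation, the antigen genes H2-K1 and H2-D1 were separated upward (0.79 and 0.96, adjusted p = 0.346 and 0.329), with a median of 0.33. Among 28 genes of cyclic AMP signalling, the adenylyl cyclase Adcy6 alone was separated, downward, and the median was -0.05. None of 22 ion channels of excitability and none of 3 glutamate receptors was separated, with medians of -0.12 and -0.90. Of 16 genes of glucose transport and glycolysis, Tpi1 was separated upward and Eno2 downward, with a median of -0.14. Of 13 nutrient and hormone receptors, Insr and Igf1r were separated downward, with a median of -0.15. Of 11 septins and cortexins, Septin11 was separated upward (1.25, adjusted p = 0.390) beside the lower calls of Septin3 and Ctxn2. Over all tested genes 0.103% were called lower. This list joins septins with cortexins and was drawn up with earlier results of these data known, so its calls are no result about a group. Septin3 passed the filter only through the heterozygous libraries.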
